A study of Mus musculus with 10 samples.

Results

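The genes described here are 36 genes of mitosis. They were chosen by name from a list of cell division genes and not by a threshold on any measured value. Earlier results of these data were known when they were chosen. All 36 were found among the 22835 gene names of the 2 deposited RNA-seq tables, and where a name had several transcript rows the row with the highest mean RPKM over the 4 RNA libraries was used. RPKM is a read count divided by transcript length and library size. The cells were brown preadipocytes, the precursors of heat-producing fat cells, grown from interscapular fat of newborn mice and immortalized by a retrovirus that carries the SV40 large T antigen. They were induced to become fat cells with insulin, T3, IBMX, dexamethasone and indomethacin. The 4 RNA groups held 1 library each: the LSL-K4M;CreER line given 4OHT (4-hydroxytamoxifen), the same line as mock, the Mll3f/f;Mll4SETf/f;CreER line given 4OHT, called Mll3/4SET here, and that line as mock. Both lines carry CreER, a recombinase that 4OHT switches on, so the mock cultures held the same alleles unrecombined. In LSL-K4M the recombinase frees expression of histone H3.3 with methionine in place of lysine 4, and in Mll3/4SET it removes the floxed part of Mll3 and the floxed SET domain of Mll4, genes of enzymes that methylate lysine 4 of histone H3. The RNA is labelled as day 7 of adipogenesis, when mature adipocytes are present, although the titles of both 4OHT libraries read day 0. The number of clones or cultures behind a library and the time of the 4OHT treatment are not in the labels. With 1 library a group no test across replicates exists and no p-value is given.

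Mitosis starts when cyclin A and cyclin B bind and activate the kinase CDK1. The spindle checkpoint then holds the cell until every chromosome is attached to the spindle, after which the anaphase-promoting complex with CDC20 marks cyclin B and securin for breakdown and separase parts the sister chromatids. The genes of these proteins are transcribed mainly in the G2 and M phases and silenced in resting cells, through the DREAM complex, which binds the cell cycle homology region of their promoters, and through the factors B-MYB, FOXM1 and NF-Y. Confluent preadipocytes of cell culture models divide again for a short time after the inducing hormones are added, and mature adipocytes have left the cell cycle. SV40 large T antigen binds the retinoblastoma proteins, which are partners in that silencing, and keeps cells dividing.

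The 4 libraries held from 15209607 to 16719658 reads over 1 transcript per gene. The cell type label was checked on adipocyte genes. Pparg encodes the master regulator of fat cell formation and was at 22.9 RPKM in LSL-K4M 4OHT, 134 in LSL-K4M mock, 3.23 in Mll3/4SET 4OHT and 100.3 in Mll3/4SET mock. The lipid carrier gene Fabp4 was at 1066 RPKM in LSL-K4M 4OHT, 4099 in LSL-K4M mock, 24.3 in Mll3/4SET 4OHT and 5119 in Mll3/4SET mock. Adipoq, which encodes adiponectin, was at 119 RPKM in LSL-K4M 4OHT, 483 in LSL-K4M mock, 3.22 in Mll3/4SET 4OHT and 167 in Mll3/4SET mock, and Ucp1, the uncoupling protein of brown fat, at 0.0793 RPKM in LSL-K4M 4OHT, 3.58 in LSL-K4M mock, 0.0561 in Mll3/4SET 4OHT and 1.45 in Mll3/4SET mock. So Pparg, Fabp4 and Adipoq were at 100.3 RPKM or more in both mock libraries, lower in LSL-K4M 4OHT and lowest in Mll3/4SET 4OHT. Ucp1 was low in both mock libraries and below the limit of 1 RPKM used here in both 4OHT libraries. The targeted genes do not check the genotypes, since reads over a whole transcript do not show the loss of a few exons: Mll3 was at 4.09 RPKM in LSL-K4M 4OHT, 5.17 in LSL-K4M mock, 5.46 in Mll3/4SET 4OHT and 7.48 in Mll3/4SET mock. The gene for MLL4, named Mll2 in the tables, was at 10.2 RPKM in LSL-K4M 4OHT, 9.31 in LSL-K4M mock, 12.2 in Mll3/4SET 4OHT and 13.6 in Mll3/4SET mock. Of the genes for H3.3, H3f3a was at 17.6 RPKM in LSL-K4M 4OHT, 19.04 in LSL-K4M mock, 15.3 in Mll3/4SET 4OHT and 20.7 in Mll3/4SET mock, and H3f3b at 162.0 RPKM in LSL-K4M 4OHT, 166.1 in LSL-K4M mock, 132.3 in Mll3/4SET 4OHT and 212.5 in Mll3/4SET mock.

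All 36 mitosis genes had the same order of libraries on the deposited scale. Each was lower in Mll3/4SET mock than in any other library, intermediate in Mll3/4SET 4OHT, and higher in both LSL-K4M libraries. Of 12533 genes at 1 RPKM or more in at least 1 library, 9.22% had that order. One step of it rests on the scaling, since the ratio of Mki67, 4OHT over mock in Mll3/4SET, was 1.05 as deposited and 0.955 under median-ratio scaling. The summed level of the 36 genes was 590.7 RPKM in LSL-K4M 4OHT and 640.1 RPKM in LSL-K4M mock, and 356.2 RPKM in Mll3/4SET 4OHT and 216.7 RPKM in Mll3/4SET mock. They held 42958 reads in LSL-K4M 4OHT, 44652 in LSL-K4M mock, 24381 in Mll3/4SET 4OHT and 15661 in Mll3/4SET mock. The median level per gene was 14.9 RPKM in LSL-K4M 4OHT, 15.6 in LSL-K4M mock, 8.45 in Mll3/4SET 4OHT and 4.68 in Mll3/4SET mock, while the median of all genes at 1 RPKM or more lay between 8.86 and 9.35 RPKM in the 4 libraries. Every member was measured, with from 96 reads (Cenpa in Mll3/4SET mock) to 8521 reads (Mki67 in LSL-K4M mock), and all passed 1 RPKM in every library. In RNA from whole cultures, fewer cells in mitosis and less RNA per cell cannot be told apart.

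**Figure D1:**
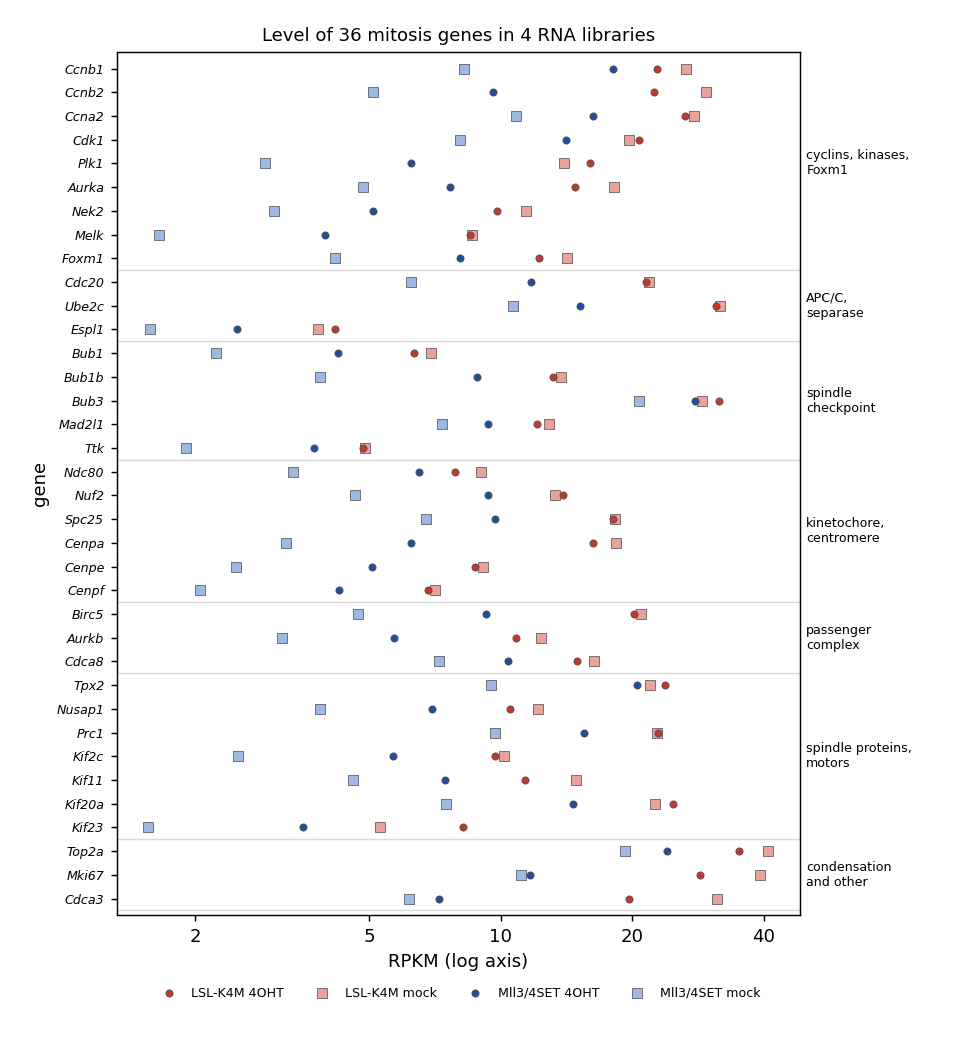
Level of each of the 36 mitosis genes in RPKM on a log axis, 1 point per library, grouped by role. Dark circles are 4OHT libraries and pale squares mock libraries, red for LSL-K4M and blue for Mll3/4SET; the pale blue squares of Mll3/4SET mock lie farthest left for every gene and the dark blue circles lie between them and the red points.

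Differences are given as log2((RPKM + 1)/(RPKM + 1)), which understates the change of weakly expressed genes, and ratios as plain ratios of RPKM followed in brackets by the exact 95% interval from the read numbers. Such an interval holds counting error and nothing else, since each group held 1 library. No source names molecular identifiers on the reads, so duplicate reads could not be set apart. In LSL-K4M, 4OHT against mock, none of the 36 genes was higher by 2-fold or more and none was lower, where 5.26% of 12179 measured genes were higher and 6.19% lower. The median log2 difference was -0.06, beside 0.10 for all measured genes, with 9 of the 36 genes above 0 and 27 below, against 59% and 41% of all genes. At 1.5-fold none was higher and Cdca3 was lower, beside 16% and 13% of all genes. In Mll3/4SET, 4OHT against mock, all 36 genes were higher in the 4OHT library, where 60.6% of 12184 measured genes were higher and 39.4% lower. The median log2 difference was 0.72, beside 0.12 for all genes. A size of 2-fold was reached by 3 genes, Ccnb1, Tpx2 and Bub1b, beside 5.18% of all genes, and a size of 1.5-fold by 25 genes, beside 16.1% of all genes. None was lower at either size, where 7.41% of all genes were lower by 2-fold and 13% by 1.5-fold. Under median-ratio or upper-quartile scaling no member was higher by 2-fold in Mll3/4SET, beside 3.72% and 4.58% of all genes. At 1.5-fold 21 and 22 members were higher there, beside 11.5% and 14.3% of all genes, with medians of 0.60 and 0.68. With a pseudocount of 0.1 in place of 1, 9 members were higher by 2-fold, beside 8.31% of all genes. Median-ratio scaling also moved the calls over all genes, to 3.99% higher and 7.50% lower in LSL-K4M and to 3.72% higher and 8.47% lower in Mll3/4SET. Between the mock libraries, Mll3/4SET over LSL-K4M, 33 of the 36 genes were lower by 2-fold or more, beside 3.18% of 12027 measured genes, and none was higher, beside 1.82%. At 1.5-fold 35 were lower and none higher, beside 9.64% and 6.61% of all genes. All 36 lay below 0, where 50.3% of all genes lay below and 49.7% above, and the median was -1.48, beside -0.00 for all genes. The tables of the 2 lines were scaled separately, yet the 2 mock libraries had an overall ratio near 1, with a median-ratio factor of 1.00.

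By counting error alone, 34 of the 36 genes had an interval above 1 in Mll3/4SET, 4OHT over mock, against 45.2% of all measured genes, and all 36 had an interval below 1 for mock against mock, where 32.5% of all genes did. In LSL-K4M, 5 genes had an interval above 1, 12 an interval below 1 and 19 an interval that held 1, while 44.4%, 27.6% and 28% of all genes did so. These splits hold for the deposited scaling only. Under median-ratio scaling 12 of the 36 LSL-K4M ratios moved outside their counting interval. The ratio of Tpx2, not among those 12, also left its interval and changed direction. Under upper-quartile scaling 3 of the 36 ratios moved outside their interval. The 4OHT ratio of Mll3/4SET over that of LSL-K4M was above 1 for every gene, from 1.23 for Bub3 to 2.54 for Ccnb1 with a median of 1.95, and its counting interval was above 1 in 36 of 36 cases, against 19.4% of 11790 genes. These intervals hold no variation between cultures, so the difference between the lines has no replicate check.

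**Figure D2:**
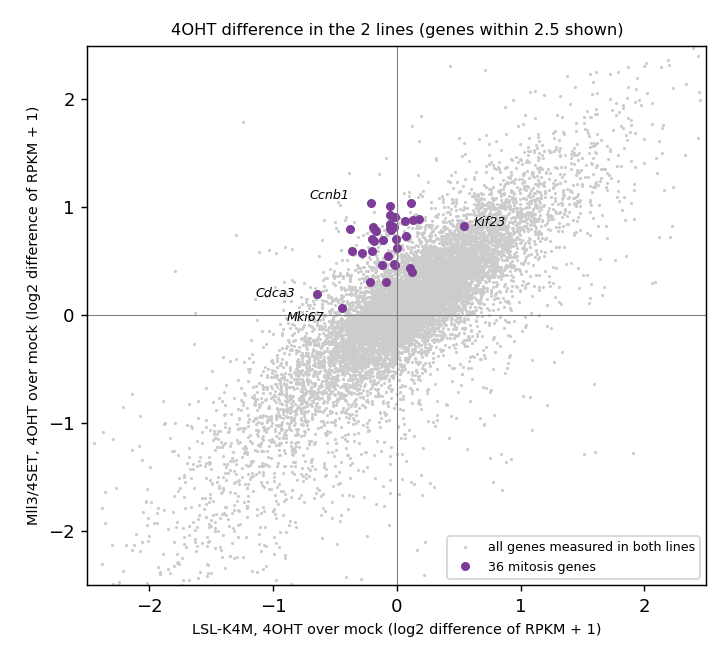
Log2 difference of RPKM + 1, 4OHT over mock, in LSL-K4M (horizontal) and Mll3/4SET (vertical) for 11830 genes measured in both lines, drawn in grey where they lie within the axis limits, with the 36 mitosis genes in purple. The mitosis genes sit above 0 on the vertical axis and mostly just left of 0 on the horizontal axis, at the upper left rim of the diagonal cloud.

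Across all 11830 genes the log2 differences of the 2 lines followed a diagonal, with Pearson's r of 0.82. Across the 36 mitosis genes r was 0.44 for the log2 ratios and Spearman's rho 0.35, a description over genes that share the 4 libraries and their scaling. The SD of the log2 ratios over the 36 members was 0.22 in LSL-K4M, 0.30 in Mll3/4SET and 0.46 between the mock libraries. It is a spread over genes of the same libraries and does not measure variation between cultures.

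Promoter sequence was a property that the choice of names did not use. RefSeq promoter windows on build GRCm38.p6, from 250 bases before to 50 bases after a start site, were matched for 31 of the 36 genes. The cell cycle homology region was searched as TTTGAA or TTCGAA and the NF-Y box as CCAAT, on both strands. TTTGAA or TTCGAA was in a window of 23 of the 31 genes (74.2%), against 21.7% of all 27025 genes with a window, and CCAAT was in 24 (77.4%), against 41.1%. Both were in a window of 21 genes (67.7%), against 8.61% of all genes. A pair of CCAAT matches on 1 strand whose starts lay 31 to 35 bases apart, a spacing looked for after the sequences were seen, was in 8 genes (25.8%), against 1.07%. Windows of the members also had more G and C, with a median of 58.7% against 52.7%. A match is a run of letters and not a measured binding site, and 5 genes, Birc5, Mad2l1, Melk, Nuf2 and Nusap1, had none of the letters in their window.

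The windows below belong to the members at 2-fold or more in Mll3/4SET with 4OHT that had one, Ccnb1 and Bub1b, and to the 3 members with the lowest log2 difference of mock against mock, Ccnb2, Cenpa and Cdca3. Each is written 5′ to 3′ on the strand of the gene, with the searched motifs in capitals (ATTGG is CCAAT and TTCAAA is TTTGAA on the other strand).
Ccnb1 (GRCm38.p6, chr13:100786437-100786736, - strand): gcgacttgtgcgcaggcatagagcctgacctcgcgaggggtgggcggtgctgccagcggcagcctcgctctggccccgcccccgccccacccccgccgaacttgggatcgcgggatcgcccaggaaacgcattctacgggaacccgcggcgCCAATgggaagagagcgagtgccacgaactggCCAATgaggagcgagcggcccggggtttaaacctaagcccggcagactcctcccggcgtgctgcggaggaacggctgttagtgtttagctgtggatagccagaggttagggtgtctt
Bub1b (GRCm38.p6, chr2:118597961-118598260, + strand): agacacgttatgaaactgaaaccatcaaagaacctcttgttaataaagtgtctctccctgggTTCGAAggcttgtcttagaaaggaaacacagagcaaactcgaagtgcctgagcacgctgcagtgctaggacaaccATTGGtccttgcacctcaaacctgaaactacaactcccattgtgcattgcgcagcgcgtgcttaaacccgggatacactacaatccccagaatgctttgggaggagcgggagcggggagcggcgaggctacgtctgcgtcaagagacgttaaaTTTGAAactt
Ccnb2 (GRCm38.p6, chr9:70421505-70421804, - strand): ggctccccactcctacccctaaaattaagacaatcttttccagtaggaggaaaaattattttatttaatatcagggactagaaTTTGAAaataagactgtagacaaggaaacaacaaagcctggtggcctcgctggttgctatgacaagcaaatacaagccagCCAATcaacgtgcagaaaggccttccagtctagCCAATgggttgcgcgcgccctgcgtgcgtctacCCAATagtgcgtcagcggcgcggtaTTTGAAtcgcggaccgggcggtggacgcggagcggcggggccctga
Cenpa (GRCm38.p6, chr5:30666636-30666935, + strand): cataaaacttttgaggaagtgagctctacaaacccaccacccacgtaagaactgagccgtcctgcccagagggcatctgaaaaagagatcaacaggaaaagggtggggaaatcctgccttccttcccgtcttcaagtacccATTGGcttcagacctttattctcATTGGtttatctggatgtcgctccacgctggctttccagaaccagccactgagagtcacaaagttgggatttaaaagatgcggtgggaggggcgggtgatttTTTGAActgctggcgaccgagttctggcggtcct
Cdca3 (GRCm38.p6, chr6:124829926-124830225, + strand): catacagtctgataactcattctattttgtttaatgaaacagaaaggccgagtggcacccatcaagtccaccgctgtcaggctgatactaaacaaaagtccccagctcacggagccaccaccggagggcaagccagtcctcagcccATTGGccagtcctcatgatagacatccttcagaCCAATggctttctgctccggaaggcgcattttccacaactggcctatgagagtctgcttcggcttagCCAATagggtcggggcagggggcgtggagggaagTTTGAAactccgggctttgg
Counted from the start site as 1 with no 0, the CCAAT matches of Ccnb1 began at -99 and -67, and its window held no TTTGAA or TTCGAA. Ccnb2 had CCAAT at -87, -54 and -21 and TTTGAA at -167 and 5. In Cdca3 the matches were CCAAT at -104, -71 and -4 and TTTGAA at 31, and in Cenpa CCAAT at -109 and -86 and TTTGAA at 17. Bub1b had CCAAT at -113, TTCGAA at -188 and TTTGAA at 41. Ccnb1 was at the largest 4OHT difference in Mll3/4SET on the log2 scale, and Ccnb2 at the largest mock difference. They differed in the letters TTTGAA and TTCGAA and shared the spaced CCAAT pair. The printed windows of Bub1b, Cenpa and Cdca3 held no such pair, and its spacing was looked for after the sequences were seen. Other forms of the homology region were not searched, so its absence from the Ccnb1 window is not shown.

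The 9 cyclin, kinase and transcription factor genes had a median ratio of 0.865 in LSL-K4M, with 5 of 9 intervals below 1, and of 1.88 in Mll3/4SET, with all 9 intervals above 1. Ccnb1 encodes cyclin B1, which activates CDK1 at the start of mitosis. It was at 22.8 RPKM in LSL-K4M 4OHT and 26.5 RPKM in LSL-K4M mock, 1.16-fold lower (1.07 to 1.26), and at 18.1 RPKM in Mll3/4SET 4OHT and 8.26 RPKM in Mll3/4SET mock, 2.19-fold higher (1.95 to 2.46). Its partner in function Ccnb2, cyclin B2, was at 22.4 RPKM in LSL-K4M 4OHT and 29.4 RPKM in LSL-K4M mock, 1.31-fold lower (1.20 to 1.45), and at 9.61 RPKM in Mll3/4SET 4OHT and 5.10 RPKM in Mll3/4SET mock, 1.88-fold higher (1.56 to 2.28). Both B cyclins thus lay slightly below mock in one line and above it in the other. Cdk1, the kinase itself, was at 20.8 RPKM in LSL-K4M 4OHT and 19.6 RPKM in LSL-K4M mock, with an interval that held 1, and at 14.1 RPKM in Mll3/4SET 4OHT and 8.06 RPKM in Mll3/4SET mock, 1.75-fold higher (1.57 to 1.95). Ccna2, cyclin A2 of S phase and G2, was at 26.4 RPKM in LSL-K4M 4OHT, 27.7 in LSL-K4M mock, 16.3 in Mll3/4SET 4OHT and 10.8 in Mll3/4SET mock, the smallest Mll3/4SET ratio of these 9 genes at 1.51 (1.36 to 1.66). Plk1, a kinase of spindle assembly and cytokinesis, was at 15.98 RPKM in LSL-K4M 4OHT, 13.9 in LSL-K4M mock, 6.24 in Mll3/4SET 4OHT and 2.90 in Mll3/4SET mock. It was the gene of this group with a LSL-K4M interval above 1, at 1.15 (1.03 to 1.27). Aurka, the centrosome kinase that activates PLK1, was at 14.8 RPKM in LSL-K4M 4OHT, 18.1 in LSL-K4M mock, 7.68 in Mll3/4SET 4OHT and 4.83 in Mll3/4SET mock, and Nek2, a kinase of centrosome separation, at 9.80 RPKM in LSL-K4M 4OHT, 11.4 in LSL-K4M mock, 5.09 in Mll3/4SET 4OHT and 3.03 in Mll3/4SET mock. For both, the LSL-K4M interval was below 1 and the Mll3/4SET interval above 1. Melk, a kinase gene whose expression goes with proliferation, was at 8.51 RPKM in LSL-K4M 4OHT, 8.60 in LSL-K4M mock, 3.97 in Mll3/4SET 4OHT and 1.65 in Mll3/4SET mock. Its ratio of 2.41 (1.91 to 3.05) was the highest of all 36 genes in Mll3/4SET, although its low level kept it under 2-fold on the log2 scale. Foxm1, the factor that activates many G2 and M genes, was at 12.2 RPKM in LSL-K4M 4OHT and 14.2 RPKM in LSL-K4M mock, 1.16-fold lower (1.07 to 1.25), and at 8.08 RPKM in Mll3/4SET 4OHT and 4.17 RPKM in Mll3/4SET mock, 1.94-fold higher (1.72 to 2.19).

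The 3 genes of anaphase had a median ratio of 0.987 in LSL-K4M and of 1.58 in Mll3/4SET. Cdc20, which activates the anaphase-promoting complex, was at 21.5 RPKM in LSL-K4M 4OHT and 21.8 RPKM in LSL-K4M mock, with an interval that held 1, and at 11.7 RPKM in Mll3/4SET 4OHT and 6.22 RPKM in Mll3/4SET mock, 1.88-fold higher (1.61 to 2.21). Ube2c, the ubiquitin-conjugating enzyme of that complex, was at 31.1 RPKM in LSL-K4M 4OHT, 31.7 in LSL-K4M mock, 15.2 in Mll3/4SET 4OHT and 10.7 in Mll3/4SET mock. Espl1, which encodes separase, was the lowest of the 36 genes in 3 of the 4 libraries, at 4.18 RPKM in LSL-K4M 4OHT, 3.82 in LSL-K4M mock, 2.498 in Mll3/4SET 4OHT and 1.58 in Mll3/4SET mock. In LSL-K4M the 3 intervals all held 1, and in Mll3/4SET they lay above 1, from a ratio of 1.43 for Ube2c to 1.88 for Cdc20.

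Of the 5 spindle checkpoint genes, which encode proteins that sense unattached kinetochores, 4 had LSL-K4M intervals that held 1, and all 5 were higher with 4OHT in Mll3/4SET. Bub1b encodes BUBR1, part of the complex that inhibits CDC20. It was at 13.2 RPKM in LSL-K4M 4OHT and 13.7 RPKM in LSL-K4M mock, and at 8.81 RPKM in Mll3/4SET 4OHT and 3.86 RPKM in Mll3/4SET mock, 2.29-fold higher (2.00 to 2.62). The kinase gene Bub1 was at 6.33 RPKM in LSL-K4M 4OHT, 6.93 in LSL-K4M mock, 4.25 in Mll3/4SET 4OHT and 2.23 in Mll3/4SET mock, and Ttk, the kinase that starts the checkpoint, at 4.85 RPKM in LSL-K4M 4OHT, 4.88 in LSL-K4M mock, 3.75 in Mll3/4SET 4OHT and 1.90 in Mll3/4SET mock. Their Mll3/4SET ratios were 1.91 (1.61 to 2.26) for Bub1 and 1.97 (1.58 to 2.47) for Ttk. Mad2l1, which encodes MAD2, the protein that binds CDC20, was at 12.1 RPKM in LSL-K4M 4OHT, 12.9 in LSL-K4M mock, 9.33 in Mll3/4SET 4OHT and 7.34 in Mll3/4SET mock, with a Mll3/4SET ratio of 1.27 (1.08 to 1.49). Bub3, which binds BUB1 and BUBR1, stood apart from the others, at 31.5 RPKM in LSL-K4M 4OHT, 28.9 in LSL-K4M mock, 27.8 in Mll3/4SET 4OHT and 20.7 in Mll3/4SET mock. It was the most abundant member in both Mll3/4SET libraries, and its mock against mock difference, 1.39-fold lower (1.28 to 1.52), was the smallest of the 36.

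Kinetochores link chromosomes to spindle fibres, and the 6 genes of that group were higher in Mll3/4SET by ratios from 1.44 (Spc25) to 2.08 (Cenpf), with a median of 1.97. Ndc80 and Nuf2 encode subunits of the microtubule-binding NDC80 complex. Ndc80 was at 7.86 RPKM in LSL-K4M 4OHT, 9.03 in LSL-K4M mock, 6.497 in Mll3/4SET 4OHT and 3.35 in Mll3/4SET mock, and Nuf2 at 13.9 RPKM in LSL-K4M 4OHT, 13.3 in LSL-K4M mock, 9.34 in Mll3/4SET 4OHT and 4.65 in Mll3/4SET mock. Spc25, of the same complex, was at 18.1 RPKM in LSL-K4M 4OHT, 18.2 in LSL-K4M mock, 9.72 in Mll3/4SET 4OHT and 6.76 in Mll3/4SET mock, with a Mll3/4SET ratio of 1.44 (1.20 to 1.73), the lowest of the 6. The intervals of Nuf2 and Spc25 in Mll3/4SET overlapped by a small margin. Cenpa encodes the histone H3 variant that marks centromeres. It was at 16.3 RPKM in LSL-K4M 4OHT, 18.4 in LSL-K4M mock, 6.24 in Mll3/4SET 4OHT and 3.23 in Mll3/4SET mock, 5.70-fold lower (4.57 to 7.15) in Mll3/4SET mock than in LSL-K4M mock. The kinesin gene Cenpe, whose motor moves chromosomes to the spindle equator, was at 8.74 RPKM in LSL-K4M 4OHT, 9.10 in LSL-K4M mock, 5.09 in Mll3/4SET 4OHT and 2.48 in Mll3/4SET mock. Cenpf, a large kinetochore protein of G2 and M, was at 6.82 RPKM in LSL-K4M 4OHT, 7.07 in LSL-K4M mock, 4.26 in Mll3/4SET 4OHT and 2.05 in Mll3/4SET mock. Ndc80 was the member of the group with an interval below 1 in LSL-K4M, at 0.870 (0.757 to 0.999), its upper bound next to 1.

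The chromosomal passenger complex corrects wrong attachments and steers cytokinesis. Its kinase gene Aurkb was at 10.8 RPKM in LSL-K4M 4OHT and 12.4 RPKM in LSL-K4M mock, 1.15-fold lower (1.01 to 1.30), and at 5.70 RPKM in Mll3/4SET 4OHT and 3.17 RPKM in Mll3/4SET mock, 1.80-fold higher (1.46 to 2.24). Birc5, which encodes survivin, was at 20.2 RPKM in LSL-K4M 4OHT, 20.9 in LSL-K4M mock, 9.25 in Mll3/4SET 4OHT and 4.71 in Mll3/4SET mock, with 4OHT to mock ratios of 0.963 (0.843 to 1.10) in LSL-K4M and 1.96 (1.54 to 2.52) in Mll3/4SET. Cdca8, which encodes borealin, was at 14.97 RPKM in LSL-K4M 4OHT, 16.3 in LSL-K4M mock, 10.4 in Mll3/4SET 4OHT and 7.24 in Mll3/4SET mock, with ratios of 0.916 (0.814 to 1.03) in LSL-K4M and 1.43 (1.22 to 1.69) in Mll3/4SET. Birc5 and Aurkb were lower by more between the mock libraries, 4.44-fold lower (3.57 to 5.56) and 3.91-fold lower (3.24 to 4.75), than Cdca8, 2.26-fold lower (1.95 to 2.62), with intervals that did not overlap.

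The 7 genes of spindle proteins and motors held the widest range in LSL-K4M and were all higher by more than 1.5 times in Mll3/4SET. Tpx2, which nucleates spindle fibres and activates the kinase AURKA, was at 23.8 RPKM in LSL-K4M 4OHT and 21.9 RPKM in LSL-K4M mock, 1.08-fold higher (1.02 to 1.15), and at 20.5 RPKM in Mll3/4SET 4OHT and 9.48 RPKM in Mll3/4SET mock, 2.16-fold higher (1.99 to 2.35). The small excess in LSL-K4M turned to a ratio of 0.997 under median-ratio scaling. Kif23, a kinesin of the central spindle needed for cytokinesis, had the highest ratio of all 36 genes in LSL-K4M. It was at 8.18 RPKM in LSL-K4M 4OHT and 5.30 RPKM in LSL-K4M mock, 1.54-fold higher (1.36 to 1.75), and at 3.53 RPKM in Mll3/4SET 4OHT and 1.56 RPKM in Mll3/4SET mock, 2.26-fold higher (1.81 to 2.83). Kif20a, another kinesin of cytokinesis, was at 24.8 RPKM in LSL-K4M 4OHT, 22.5 in LSL-K4M mock, 14.6 in Mll3/4SET 4OHT and 7.49 in Mll3/4SET mock, with ratios of 1.10 (1.03 to 1.18) in LSL-K4M and 1.95 (1.76 to 2.16) in Mll3/4SET. Prc1, which bundles fibres of the central spindle, was at 22.9 RPKM in LSL-K4M 4OHT, 22.8 in LSL-K4M mock, 15.5 in Mll3/4SET 4OHT and 9.73 in Mll3/4SET mock. Kif11, the motor that pushes spindle poles apart, went the other way from Kif23 in LSL-K4M. It was at 11.4 RPKM in LSL-K4M 4OHT and 14.9 RPKM in LSL-K4M mock, 1.31-fold lower (1.22 to 1.42), and at 7.47 RPKM in Mll3/4SET 4OHT and 4.59 RPKM in Mll3/4SET mock, 1.63-fold higher (1.45 to 1.83). Kif2c, which takes fibres apart at centromeres, was at 9.72 RPKM in LSL-K4M 4OHT, 10.2 in LSL-K4M mock, 5.67 in Mll3/4SET 4OHT and 2.51 in Mll3/4SET mock. Nusap1, a binder of spindle fibres, was at 10.5 RPKM in LSL-K4M 4OHT, 12.2 in LSL-K4M mock, 6.97 in Mll3/4SET 4OHT and 3.87 in Mll3/4SET mock.

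Top2a, Mki67 and Cdca3 were the 3 genes with LSL-K4M intervals below 1 that also had the smallest Mll3/4SET ratios. Mki67 encodes Ki-67, the common staining marker of dividing cells, which coats mitotic chromosomes. It was at 28.6 RPKM in LSL-K4M 4OHT and 39.2 RPKM in LSL-K4M mock, 1.37-fold lower (1.33 to 1.42), and at 11.7 RPKM in Mll3/4SET 4OHT and 11.1 RPKM in Mll3/4SET mock, a ratio of 1.05 (0.996 to 1.11). Between the mock libraries Mki67 was 3.53-fold lower (3.38 to 3.69). Top2a, topoisomerase II alpha, which untangles sister DNA, was at 35.2 RPKM in LSL-K4M 4OHT and 40.97 RPKM in LSL-K4M mock, 1.17-fold lower (1.12 to 1.22), and at 24.1 RPKM in Mll3/4SET 4OHT and 19.2 RPKM in Mll3/4SET mock, 1.25-fold higher (1.18 to 1.33). Cdca3, known from Xenopus as an adaptor for the breakdown of the inhibitory kinase WEE1, was at 19.7 RPKM in LSL-K4M 4OHT and 31.3 RPKM in LSL-K4M mock, 1.59-fold lower (1.44 to 1.76), the lowest ratio of the 36 in that line. In Mll3/4SET it was at 7.22 RPKM in Mll3/4SET 4OHT and 6.16 RPKM in Mll3/4SET mock, a ratio of 1.17 (0.968 to 1.42). Mki67 and Cdca3 were the members with a Mll3/4SET interval that held 1. Both were lower in Mll3/4SET mock than in LSL-K4M mock, as were all 36 members.

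**Figure D3:**
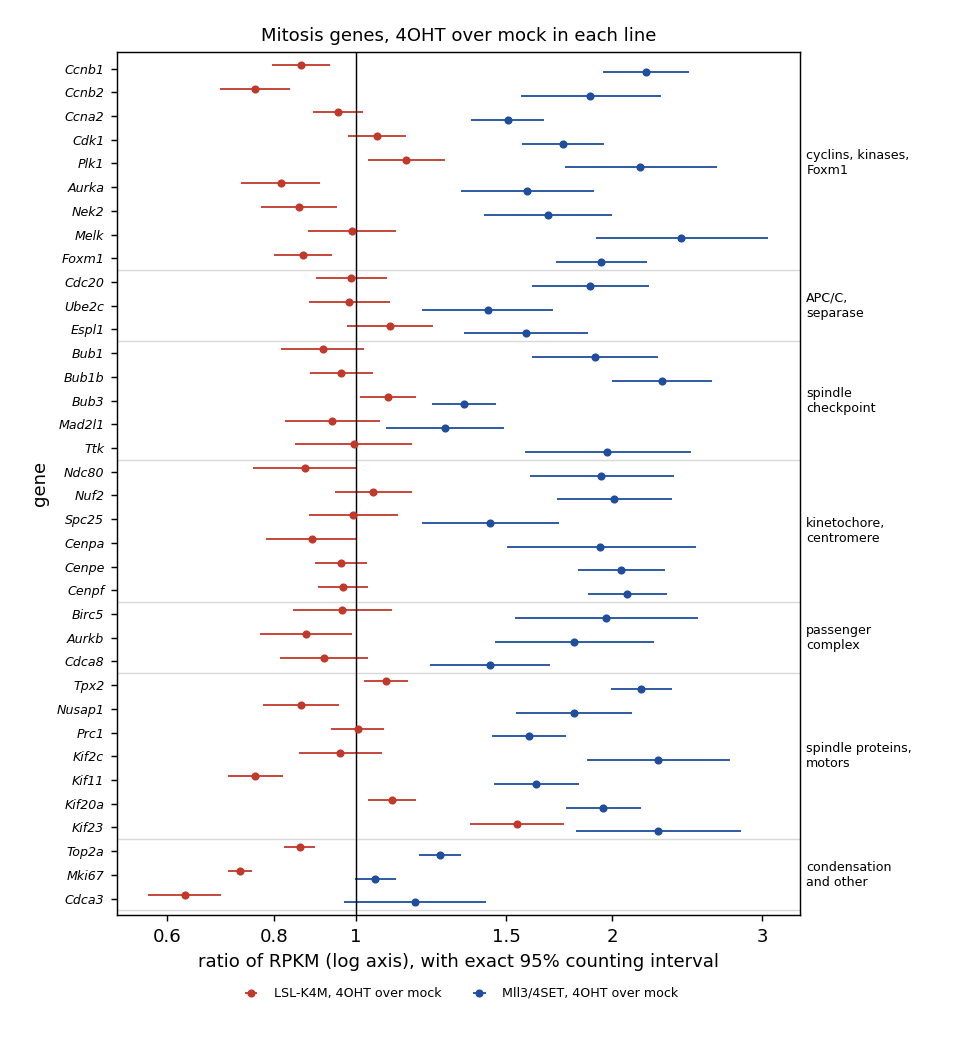
Ratio of RPKM, 4OHT over mock, for each of the 36 mitosis genes on a log axis, in LSL-K4M (red) and Mll3/4SET (blue), with exact 95% counting intervals. Red points spread from 0.629 (Cdca3) to 1.54 (Kif23) around 1, blue points from 1.05 (Mki67) to 2.41 (Melk), and each blue point lies right of its red point.

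In median, the difference between the mock libraries was larger than that of either treatment. It uses the same single Mll3/4SET mock library as the 4OHT ratios of that line. The ratio between the lines and the order of libraries use it too, so these are not separate observations. The median ratio of the 36 genes, Mll3/4SET mock over LSL-K4M mock, was 0.310, or 3.23-fold lower. Ccnb2 was 5.77-fold lower (4.91 to 6.82), Cenpa 5.70-fold lower (4.57 to 7.15), Melk 5.22-fold lower (4.23 to 6.48) and Cdca3 5.08-fold lower (4.37 to 5.94). Plk1 was 4.82-fold lower (4.01 to 5.82) and Ccnb1 3.21-fold lower (2.87 to 3.59). At the other end stood Bub3 and Mad2l1, 1.76-fold lower (1.51 to 2.04), which with Espl1 on the log2 scale were the 3 genes under the 2-fold limit. The median by role was 3.91-fold lower for the passenger complex, 3.75-fold for cyclins and kinases, 3.53-fold for Top2a, Mki67 and Cdca3, 3.15-fold for spindle proteins and motors, 3.13-fold for the kinetochore, 2.97-fold for anaphase genes and 2.57-fold for the checkpoint. The order of these medians has no replicate check. The adipocyte markers summed to 8183 RPKM in each mock library, with Fabp4 alone at 5119 RPKM in Mll3/4SET mock and 4099 RPKM in LSL-K4M mock. Of the 16 markers 4 were lower by 2-fold or more in Mll3/4SET mock and none higher, beside 3.18% and 1.82% of all genes. Although the sums were equal, 12 markers lay below 0 and 4 above. Their median log2 difference was -0.43, against -1.48 for the mitosis genes. With 1 mock library per line, line, culture and library cannot be told apart.

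**Figure D4:**
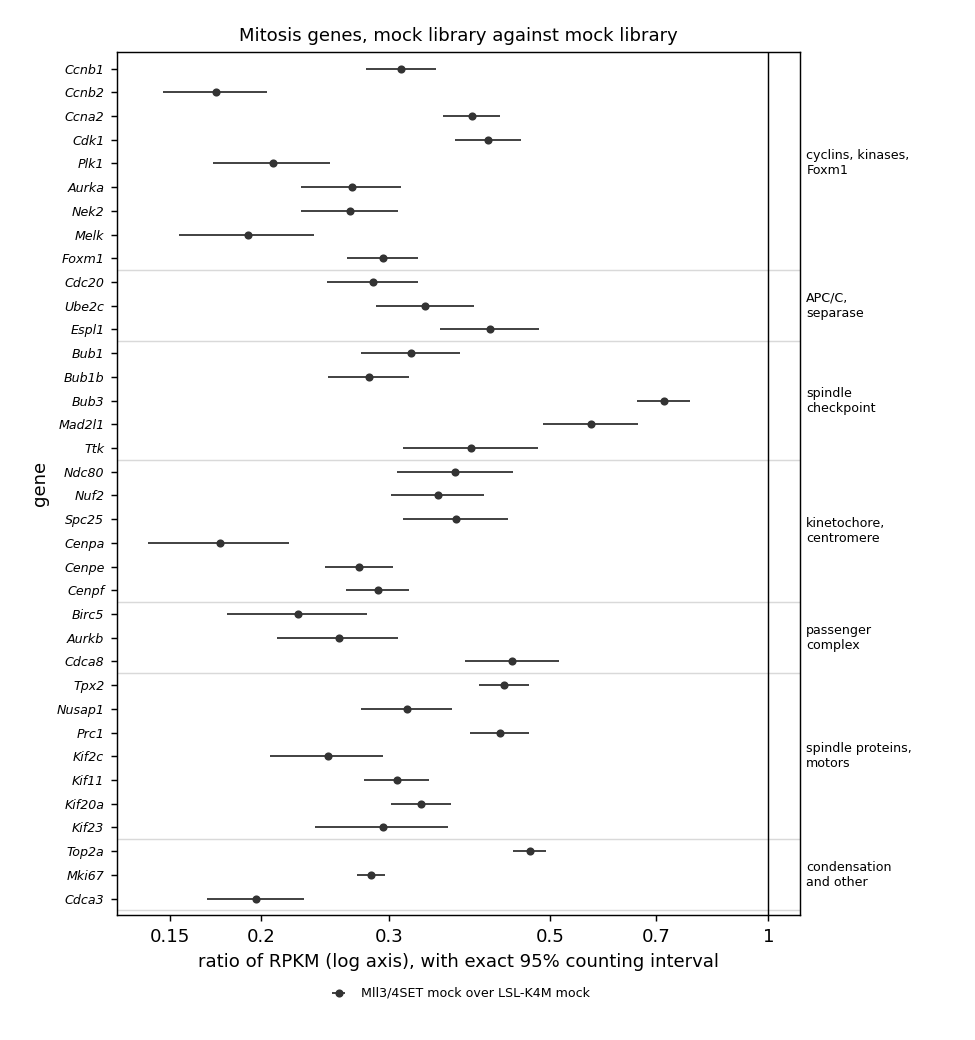
Ratio of RPKM, Mll3/4SET mock over LSL-K4M mock, for each of the 36 mitosis genes on a log axis with exact 95% counting intervals. All points and intervals lie left of 1, from 0.173 (Ccnb2) to 0.717 (Bub3).

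Other cell cycle lists placed the 36 genes among their neighbours. Of 79 other mitosis genes listed, 76 were in the tables. In LSL-K4M with 4OHT 1 was higher by 2-fold and none lower (5.26% and 6.19% of all genes), with a median of -0.04. In Mll3/4SET 3 of 75 measured were higher by 2-fold (5.18% of all genes), 25 were higher by 1.5-fold (16.1% of all genes) and none was lower at either size, with a median of 0.44. Gtse1, which encodes a microtubule-binding protein of G2 and M, was at 26.99 RPKM in LSL-K4M 4OHT, 9.47 in LSL-K4M mock, 14.7 in Mll3/4SET 4OHT and 4.47 in Mll3/4SET mock, 2.85-fold higher (2.59 to 3.14) in LSL-K4M and 3.29-fold higher (2.87 to 3.79) in Mll3/4SET with 4OHT. Ckap2, which encodes a spindle protein, was 1.82-fold higher (1.68 to 1.97) in LSL-K4M and 2.92-fold higher (2.61 to 3.28) in Mll3/4SET, and Cenpt, of the inner kinetochore, 1.96-fold higher (1.69 to 2.27) in LSL-K4M and 2.98-fold higher (2.48 to 3.60) in Mll3/4SET. These 3 genes were therefore higher in both lines, while the median of their list was near 0 in LSL-K4M. Kifc1, a spindle motor, was near 1 in LSL-K4M at 1.09 (0.958 to 1.24) and 2.32-fold higher (1.88 to 2.88) in Mll3/4SET, and Cenpk was 1.78-fold lower (1.39 to 2.29) in LSL-K4M and at a ratio of 1.02 (0.760 to 1.36) in Mll3/4SET. Between the mock libraries 31 of the 76 were lower by 2-fold (beside 3.18% of all genes), 52 lower by 1.5-fold (beside 9.64% of all genes), and none higher, with a median of -0.89.

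Of 51 genes of DNA replication and S phase, none was higher and 2 were lower by 2-fold in LSL-K4M, where 5.26% of all genes were higher and 6.19% lower, with a median of -0.07. In Mll3/4SET 1 was higher and 1 lower, where 5.18% and 7.41% of all genes were, with a median of 0.30. Between the mock libraries 7 were lower and none higher, where 3.18% and 1.82% of all genes were, with a median of -0.63. E2f2, a transcription factor of S phase genes, was 3.72-fold lower (3.17 to 4.39) in LSL-K4M and 3.38-fold lower (2.68 to 4.28) in Mll3/4SET with 4OHT, and the histone chaperone gene Asf1b was 2.80-fold lower (2.51 to 3.12) in LSL-K4M and 1.84-fold lower (1.57 to 2.15) in Mll3/4SET. Cdt1, a licensing factor of replication origins, was 1.85-fold lower (1.70 to 2.01) in LSL-K4M and 1.10-fold higher (1.01 to 1.21) in Mll3/4SET, and the thymidine kinase gene Tk1 1.70-fold lower (1.52 to 1.91) in LSL-K4M and 1.23-fold lower (1.02 to 1.49) in Mll3/4SET. Dnmt1, which copies DNA methylation after replication, was 1.41-fold higher (1.34 to 1.47) in LSL-K4M and 2.16-fold higher (2.05 to 2.28) in Mll3/4SET, and Chaf1b, a histone chaperone subunit, 1.27-fold higher (1.14 to 1.42) in LSL-K4M and 1.86-fold higher (1.63 to 2.11) in Mll3/4SET. These 6 genes are those with the largest differences of the list. The list as a whole held no more 2-fold calls in either line than the share over all genes. In LSL-K4M 16 of the 51 genes lay above 0 and 35 below, beside 59% and 41% of all genes. In Mll3/4SET 42 lay above 0 and 9 below, beside 60.6% and 39.4%. Between the mock libraries 27 were lower by 1.5-fold and none higher, beside 9.64% and 6.61%. Their counting interval was below 1 in 48 cases, beside 32.5% of all genes.

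Of 24 G1 cyclins, CDKs and cell cycle brakes, 23 were measured. In LSL-K4M 3 were higher and 1 lower by 2-fold (5.26% and 6.19% of all genes), with a median of 0.39. In Mll3/4SET none was higher and 1 lower (5.18% and 7.41% of all genes), with a median of 0.26, and between the mock libraries none was higher or lower, with a median of 0.06. Cdkn1a, the p21 inhibitor of cyclin-dependent kinases, was at 262 RPKM in LSL-K4M 4OHT, 95.5 in LSL-K4M mock, 207 in Mll3/4SET 4OHT and 121 in Mll3/4SET mock, 2.75-fold higher (2.65 to 2.85) in LSL-K4M and 1.72-fold higher (1.66 to 1.78) in Mll3/4SET with 4OHT. Ccng1, which encodes cyclin G1, was 2.36-fold higher (2.29 to 2.43) in LSL-K4M and 1.75-fold higher (1.70 to 1.81) in Mll3/4SET, and the CDK4 and CDK6 inhibitor gene Cdkn2b 2.32-fold higher (2.14 to 2.52) in LSL-K4M and 1.21-fold higher (1.11 to 1.32) in Mll3/4SET. Cdkn2c, an inhibitor of the same kinases, was 1.89-fold lower (1.74 to 2.06) in LSL-K4M and 3.29-fold lower (2.93 to 3.71) in Mll3/4SET, and Gadd45a, a stress-induced gene, 2.89-fold lower (2.65 to 3.15) in LSL-K4M and 1.44-fold lower (1.36 to 1.52) in Mll3/4SET. Ccng2, a cyclin gene of resting cells, was 1.32-fold lower (1.20 to 1.46) in LSL-K4M and 1.97-fold lower (1.79 to 2.16) in Mll3/4SET. The G1 kinase genes Cdk4 and Cdk6 were 1.70-fold higher (1.62 to 1.79) and 1.58-fold higher (1.27 to 1.99) in LSL-K4M and 1.84-fold higher (1.76 to 1.93) and 2.25-fold higher (1.77 to 2.88) in Mll3/4SET. These G1 kinase genes were therefore higher with 4OHT in both lines.

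**Figure D5:**
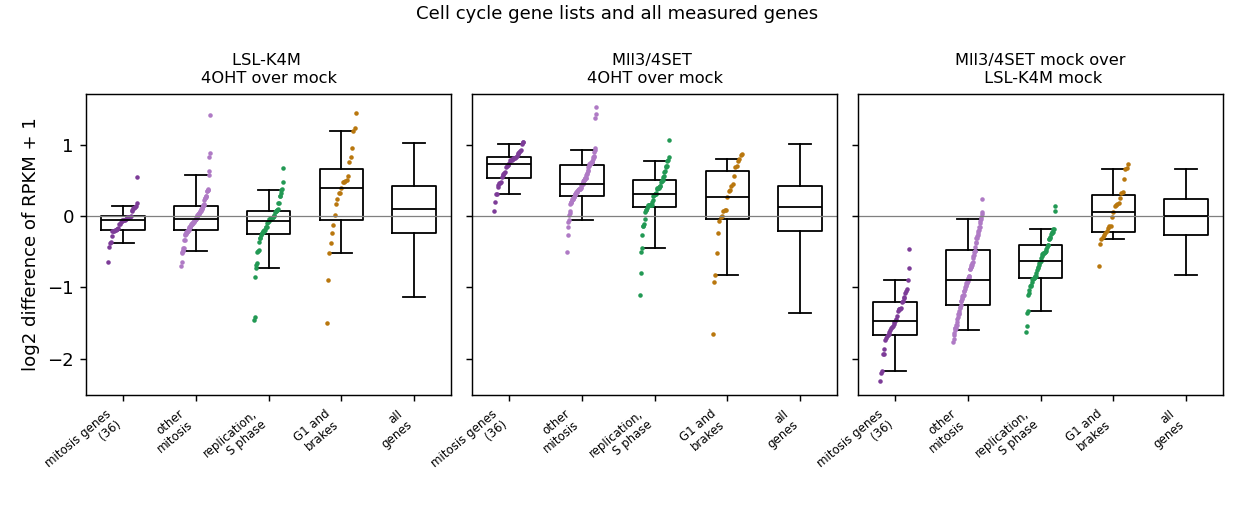
Log2 difference of RPKM + 1 in the 3 comparisons for the 36 mitosis genes, the other mitosis genes, replication and S phase genes, G1 genes and brakes, and all measured genes. Points are genes, boxes span the quartiles with the median as a line and whiskers the 5th to 95th percentiles; the mitosis genes have medians of -0.06, 0.72 and -1.48 from the left panel to the right.

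Markers of cell types differed with 4OHT in both lines, and their part in the mitosis values was not tested. As background for the 2-fold counts of markers below, 5.26% of all measured LSL-K4M genes were higher and 6.19% lower. For Mll3/4SET these background shares were 5.18% higher and 7.41% lower. The 16 adipocyte markers summed to 2091 RPKM in LSL-K4M 4OHT and 8183 RPKM in LSL-K4M mock, with all 16 lower by 2-fold or more, and to 90.3 RPKM in Mll3/4SET 4OHT and 8183 RPKM in Mll3/4SET mock, with all 15 measured lower. All 10 contractile and myofibroblast markers were higher by 2-fold or more in both lines, with sums of 2818 RPKM in LSL-K4M 4OHT and 638.4 in LSL-K4M mock, and of 1648 RPKM in Mll3/4SET 4OHT and 445.6 in Mll3/4SET mock. The 10 preadipocyte and progenitor markers summed to 492.9 RPKM in LSL-K4M 4OHT and 470.9 in LSL-K4M mock (4 of 9 measured higher by 2-fold, none lower), and to 302.0 RPKM in Mll3/4SET 4OHT and 490.3 in Mll3/4SET mock (1 higher, 2 lower). The 12 macrophage and leukocyte markers summed to 7.08 RPKM in LSL-K4M 4OHT, 9.52 in LSL-K4M mock, 4.17 in Mll3/4SET 4OHT and 8.54 in Mll3/4SET mock, with Cd3e and Tyrobp at 0 reads in every library. The 10 skeletal muscle markers summed to 11.4 RPKM in LSL-K4M 4OHT, 4.24 in LSL-K4M mock, 5.02 in Mll3/4SET 4OHT and 2.16 in Mll3/4SET mock, mostly Acta1, with Myod1, Myog and Myf5 at 0 reads throughout. The 6 endothelial markers summed to 2.18 RPKM in LSL-K4M 4OHT, 1.77 in LSL-K4M mock, 5.51 in Mll3/4SET 4OHT and 3.17 in Mll3/4SET mock, mostly Tek, with Cdh5 and Emcn at 0 reads in every library. Contractile markers were higher with 4OHT in both lines. The mitosis genes were higher in Mll3/4SET and had a median of -0.06 in LSL-K4M, and a link between these values was not tested.

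The choice of transcript row moved the ratios little. The 7 members with several transcript rows were Birc5, Bub1, Kif20a, Nusap1, Spc25, Tpx2 and Ttk, whose rows share reads. The widest difference was in Birc5, where the row used gave a Mll3/4SET 4OHT to mock ratio of 1.96 and the other row 1.74, and mock against mock ratios of 0.225 and 0.262. The 5 rows of Tpx2 gave Mll3/4SET ratios from 2.16 to 2.17.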

How the data were processed

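RNA of 4 libraries was analysed, 1 per line and treatment. The 6 ChIP-seq and input libraries of the series were not used here. Per the labels' protocols, RNA was taken with Trizol and mRNA was selected on beads. Per the submitters' processing notes the build was mm9 and SICER is named with no role. The aligner, the counter and strand use are not given in the sources used here. As RNA values the authors deposited, per the file headers, a read count and an RPKM per library for 29082 RefSeq transcripts. The authors' deposited ratio of mock to 4OHT and the deposited column on expressed libraries (of the unit kind other) were left out of all comparisons. RPKM were proportional to the counts, with 1 factor between libraries (0.938 in LSL-K4M, 1.03 in Mll3/4SET, 0.969 between the mock libraries).

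Genes that reached 1 RPKM in 1 library of a pair were compared as log2((RPKM + 1)/(RPKM + 1)), and sizes of 2-fold and 1.5-fold were counted. Ratio intervals are exact conditional binomial (Clopper-Pearson, 95%) and those of ratios between lines normal approximations on the log scale, for counting error only. The share of all genes past the same rule is given as background. The members, lists and alternatives were chosen with earlier results of these data known, and the spaced CCAAT search after the sequences were seen. Named were all 36 members and, of other lists, those with the largest 4OHT differences in each line, of which only part of the marker genes are printed. Of members at 2-fold or more in any comparison, the promoters of 5 are printed. Computations used Python 3.11.15, numpy 2.4.6, pandas 2.3.3 and scipy 1.17.1, and the size rule and intervals were tested on simulated counts. Gene names were matched by accession to GRCm38.p6 for 98.0% of names and all 36 members; as that is another build than mm9, its coordinates are printed for promoter sequences only. Other settings were pseudocounts of 0.1 and 0.001, a lower limit of 5 RPKM or none, scaling by median ratio or upper quartile, another row choice and leaving out names with several rows.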

Additional observations from a re-analysis of the deposited data

Results flagged for a closer look

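The median log2 difference of the 36 mitosis genes had opposite signs in the 2 lines, close to 0 in LSL-K4M. For 4OHT over mock it was 0.72 in Mll3/4SET and -0.06 in LSL-K4M, where all measured genes had medians of 0.12 in Mll3/4SET and 0.10 in LSL-K4M. On the deposited scaling, 10 members had a counting interval above 1 in Mll3/4SET and below 1 in LSL-K4M. That pattern was found in 1.79% of the 11830 genes measured in both lines. For 5 members the interval was above 1 in both lines, a pattern not counted over all genes. In each line singly, 45.2% of all genes in Mll3/4SET and 44.4% in LSL-K4M had an interval above 1. These shares do not give the share with both, so the 5 members cannot be set against all genes. With 1 library per group, the difference between the lines was not tested across replicates.

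The B cyclin genes had 4OHT to mock ratios of 2.19 in Mll3/4SET and 0.861 in LSL-K4M for Ccnb1, and of 1.88 in Mll3/4SET and 0.760 in LSL-K4M for Ccnb2. Among kinase genes, Aurka was at 1.59 in Mll3/4SET and 0.816 in LSL-K4M, Aurkb at 1.80 in Mll3/4SET and 0.873 in LSL-K4M, and Nek2 at 1.68 in Mll3/4SET and 0.857 in LSL-K4M. Foxm1, the transcription factor of the group, was at 1.94 in Mll3/4SET and 0.865 in LSL-K4M. The spindle and kinetochore genes were Kif11 at 1.63 in Mll3/4SET and 0.762 in LSL-K4M, Nusap1 at 1.80 in Mll3/4SET and 0.862 in LSL-K4M, and Ndc80 at 1.94 in Mll3/4SET and 0.870 in LSL-K4M. Top2a was at 1.25 in Mll3/4SET and 0.858 in LSL-K4M.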

How the results depend on the processing

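No paired analysis was possible because each group holds 1 library and the labels carry no replicate numbers. The number of members higher by 2-fold in Mll3/4SET with 4OHT, 3 as reported, depended on the settings: it was 9 and 10 with pseudocounts of 0.1 and 0.001, 0 under both median-ratio and upper-quartile scaling, and 25 at a size of 1.5-fold. The share of all genes moved as well, from 5.18% as reported to 8.31% and 8.89% with those pseudocounts. It was 3.72% and 4.58% under those scalings and 16.1% at 1.5-fold. In LSL-K4M 1 member, Cdca3, was lower at 1.5-fold, against 0 at 2-fold, where 13% and 6.19% of all genes were lower. The medians kept their sign under every setting run, from -0.17 to -0.06 in LSL-K4M, from 0.60 to 0.91 in Mll3/4SET and from -1.69 to -1.47 between the mock libraries. Median-ratio scaling moved all genes by -0.12 in LSL-K4M and by -0.14 in Mll3/4SET (log2), with member medians of -0.17 and 0.60 beside -0.00 for all genes in both. Of the single ratios whose interval left out 1, that of Tpx2 in LSL-K4M changed direction, to 0.997 under median-ratio scaling. Of those whose intervals held 1, Mki67 in Mll3/4SET (0.955) and Cdk1 (0.974), Nuf2 (0.964) and Prc1 (0.924) in LSL-K4M also crossed 1 there, and these 3 LSL-K4M ratios crossed it under upper-quartile scaling too (0.995, 0.985 and 0.944 in that order). A pseudocount of 1 on ratios, added after the data were seen, moved 16 of 36 mock against mock ratios outside their counting interval without turning any. Leaving out replicates was not possible. Depth limits the weakest values, such as Cenpa with 96 reads in Mll3/4SET mock.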
